A study of Mus musculus with 6 samples.

Results

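The genes described here are 10 growth factors that myeloid and brain cells are known to make, namely Hbegf, Vegfa, Vegfb, Igf1, Pdgfa, Pdgfb, Bdnf, Osm, Tgfa and Hgf. They were chosen by symbol, and all 10 were found among the 16516 genes of the expression table. RNA was sequenced from CD11b+ cells that had been pulled from the cortex of C57BL6/J mice with magnetic beads, and the cells carry the label Microglia. The mice were male and 8 to 10 weeks old. NS mice (3 samples) received normal saline and 4LPS mice (3 samples) received lipopolysaccharide of Escherichia coli 055:B5, a bacterial cell wall component, at 500 µg/kg into the abdomen, each once a day for 4 days. Cells were collected at day 7, counted from the first injection, and each sample pooled 2 mice, so that the spread between samples is a spread between pools. The beads hold any cell with CD11b on its surface, which other myeloid cells and natural killer cells also carry.

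Growth factors are secreted or membrane-held proteins that bind receptors on nearby cells and drive survival, division, migration or repair. HB-EGF and TGF-α are made as membrane proteins, are released by metalloproteases and bind the EGF receptor, whereas the VEGF and PDGF families bind receptor tyrosine kinases of vessel and mural cells. Oncostatin M signals through a shared cytokine receptor subunit, and IGF-1, BDNF and HGF each have a receptor tyrosine kinase of their own. In the brain, microglia are a known source of several of these ligands, and other glia, neurons and vessel cells make or receive them.

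The comparison of 4LPS with NS asks which of these ligands differed in CD11b+ cells 7 days after the start of repeated LPS, the state in which the study examined ischemic tolerance. Hbegf and Vegfa fell in 4LPS cells. Hbegf was 3.32-fold lower and Vegfa 1.65-fold lower. Of the 9 growth factors that could be tested, 0 passed in the higher direction, 2 passed in the lower direction and 7 did not pass (edgeR quasi-likelihood test, adjusted p under 0.05). Over all 13151 genes tested, 9.95% were called higher and 6.43% lower. At an unadjusted p under 0.05, 3 of the growth factors were higher (Vegfb, Pdgfa and Osm) and 3 lower (Hbegf, Vegfa and Tgfa), and DESeq2 called 1 higher (Osm) and 2 lower. Bdnf did not pass the filter on low counts. The median log2 fold change of the 9 growth factors was 0.18, with 4 of them below 0, beside a median of -0.02 and 52.7% below 0 over all genes tested. For 5 of the 9 the values of the groups did not overlap, a state that 37.4% of all genes tested shared. In bulk samples like these, fewer cells of a type and less RNA per cell cannot be told apart.

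Total counts were 15158342 to 15746606 in NS and 15164123 to 15462396 in 4LPS. All 10 microglia markers examined were present, with a summed level of 46771 to 49341 CPM (counts scaled to a common library total) in NS and 45738 to 46323 CPM in 4LPS, and edgeR called 1 of them (P2ry12) lower. DESeq2 called 7 of the 10 lower and 1 higher, and at an unadjusted p under 0.05 edgeR had 6 lower and 1 higher. Markers of choroid plexus epithelium varied most between samples, from 1075 CPM in NS replicate 3 to 8547 and 10189 CPM in NS replicates 2 and 1, and from 18.6 to 3388 CPM in 4LPS. The lowest sum, 18.6 CPM, was that of 4LPS replicate 2. NS replicate 3 stood apart from the other NS samples in this respect, at a level within the 4LPS range. Values without NS replicate 3 are given beside Hbegf, Vegfa, Vegfb, Pdgfb, Osm and Igf1. Without NS replicate 3, 1 growth factor (Osm) was called higher and 2 (Hbegf and Vegfa) lower. Markers of natural killer cells summed to 5.66 to 10.5 CPM in NS and 109 to 125 CPM in 4LPS, and 10 of 10 were called higher. Of the other marker lists, 3 of 3 tested T cell markers and 1 of 8 of border macrophages were called higher and 1 of 6 tested of oligodendrocyte precursors lower by edgeR. The tested T cell markers were Cd4, Cd8a and Lck. Cd8a had 1, 0 and 1 counts in NS and 10, 19 and 13 in 4LPS, and passed the filter on low counts through 4LPS. Cd3e, Cd3d and Cd3g did not pass that filter, with 1, 2 and 1 counts in all in NS and 19, 23 and 21 in 4LPS. For monocytes, B cells, mural cells, oligodendrocytes and neurons edgeR called 0, while DESeq2 called 2 of 8 monocyte markers higher (Ly6c2 and Ccr2) and 3 of 10 mural markers lower and none of the others. At an unadjusted p under 0.05 edgeR had 3 monocyte markers and 1 B cell marker higher, and 3 mural and 2 oligodendrocyte markers lower. Among all calls 60.8% were higher. Without the composition factor of the scaling this share was 34.6%, and the median log2 fold change of all genes was -0.11 instead of -0.02.

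The growth factors spanned a wide range of levels per transcript length, which was compared as FPKM (fragments scaled for transcript length and library total). In NS, Pdgfb stood highest at 119.5 ± 6.41 FPKM (SD, n = 3). Tgfa followed at 50.7 ± 1.09 and Vegfb at 34.7 ± 4.98 FPKM, and the ranges of these 3 genes did not overlap. Osm (11.0 ± 2.39 FPKM) and Pdgfa (9.42 ± 0.835 FPKM) came next and did not differ beyond their spread. Vegfa at 4.61 ± 1.12 and Hbegf at 3.27 ± 0.782 FPKM likewise overlapped, as did Igf1 at 1.25 ± 0.300 and Hgf at 0.870 ± 0.215 FPKM. In 4LPS the first 6 places were held in the same order, and Hbegf moved from the seventh to the ninth place at 0.917 ± 0.186 FPKM. There it did not differ beyond the spread from Hgf at 1.07 ± 0.0416 FPKM, whose range also overlapped that of Igf1 at 1.33 ± 0.426 FPKM.

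Pdgfb, Tgfa and Vegfb together made up 87.8%, 87.0% and 86.3% of the summed FPKM of the 10 genes in NS replicates 1, 2 and 3. Their share was 86.2%, 85.4% and 83.8% in 4LPS replicates 1, 2 and 3. Within these 10 genes the mRNA was thus held mostly by a PDGF chain, an EGF receptor ligand and a VEGF, none of which passed the test. Growth factors outside the 10 reached like levels, with Igf2 at 94.2, 66.7 and 9.79 FPKM and Clcf1 at 32.4, 27.8 and 27.7 FPKM in NS replicates 1, 2 and 3.

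**Figure D1:**
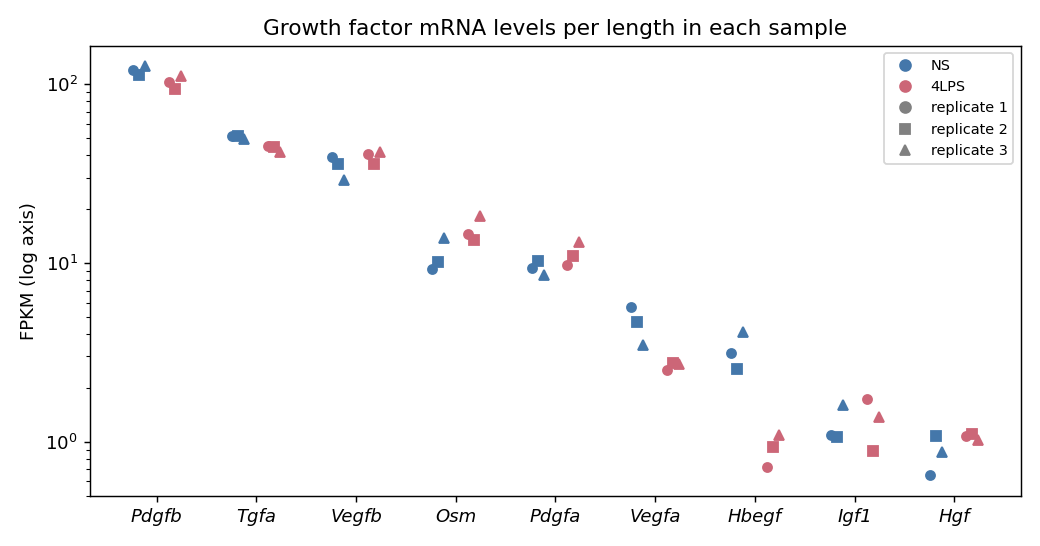
FPKM (log axis) of 9 growth factors in each NS (blue) and 4LPS (red) sample, with a symbol for each replicate number; Bdnf, near 0, is not drawn. Pdgfb, Tgfa and Vegfb lie highest in every sample, and Hbegf drops from a mean of 3.27 FPKM in NS to 0.917 FPKM in 4LPS.

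Hbegf encodes HB-EGF, a heparin-binding ligand of the EGF receptor and ErbB4. The gene lies at chr18:36637980-36649677 (GRCm39, minus strand), and its reference transcript has 6 exons. Hbegf was measured at 6.29, 5.22 and 8.37 CPM in NS replicates 1, 2 and 3, and at 1.55, 2.04 and 2.37 CPM in 4LPS replicates 1, 2 and 3. Every 4LPS sample was below every NS sample, and the values rested on 318 counts in all in NS and 88 in 4LPS. The mean fell from 6.63 ± 1.60 to 1.99 ± 0.413 CPM (SD, n = 3 each), a log2 fold change of -1.73 with a standard error of 0.25 and a 95% interval of -2.32 to -1.15 (edgeR, adjusted p = 0.00378). The decrease passed the test under all 18 alternatives tried, with log2 fold changes from -1.96 to -1.15 and an adjusted p of at most 0.0179. Without NS replicate 3 the log2 fold change was -1.53 (edgeR, adjusted p = 0.00574).

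Markers of some other cell types were also lower in 4LPS, the group in which Hbegf was lower. The 10 endothelial markers summed to 420, 334 and 690 CPM in NS replicates 1, 2 and 3, and to 158, 206 and 354 CPM in 4LPS. All 10 had log2 fold changes below 0 and 3 were called lower, and within each group the sample highest in Hbegf was also the one highest in these markers. That sample, replicate 3, was also the highest of its group in the summed mural cell markers (519 CPM in NS and 348 CPM in 4LPS). The same held for the natural killer cell markers (10.5 and 125 CPM), which were higher in 4LPS. Astrocyte markers summed to 322, 340 and 318 CPM in NS replicates 1, 2 and 3 and to 245, 248 and 221 CPM in 4LPS. Of the 10 astrocyte markers 5 were called lower. Within each group their sum was lowest in replicate 3, the sample highest in Hbegf. No marker of these lists was at 0 in all samples, and the part of these cells in the Hbegf result was not tested.

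Tgfa, the gene of TGF-α, another EGF receptor ligand, lies at chr6:86172041-86252728 (GRCm39, plus strand). It was measured at 209, 213 and 206 CPM in NS replicates 1, 2 and 3, and at 196, 197 and 186 CPM in 4LPS replicates 1, 2 and 3. The groups did not overlap, but the difference was small, from 209 ± 3.71 to 193 ± 6.19 CPM. The log2 fold change was -0.11 (SE 0.04, 95% interval -0.22 to -0.01) and did not pass after adjustment (edgeR, adjusted p = 0.111). It passed in 4 of 18 alternatives, namely the 3 fits of FPKM and edgeR without the composition factor (-0.21, adjusted p = 0.0200). Its estimate was close in size to the shift in the median of all genes, from -0.02 with the composition factor to -0.11 without it.

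The FPKM ratio of Tgfa to Hbegf was 16.3, 20.0 and 12.02 in NS replicates 1, 2 and 3, and 62.3, 47.6 and 38.3 in 4LPS. These ratios, which were chosen after the values had been seen and were not tested, did not overlap between the groups.

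Vegfa encodes VEGF-A, the main growth factor of vessel endothelium, and Vegfb encodes VEGF-B, its paralog, which binds the receptor VEGFR1 but not VEGFR2. Vegfa lies at chr17:46327919-46343309 and Vegfb at chr19:6958447-6965127, both on the minus strand of GRCm39. The bases before their start sites are shown because the paralogs had estimates of opposite sign, and 7 of the 10 growth factors matched the promoter table used, which is from RefSeq on GRCm38.p6, an older build than that of the positions above.

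Both sequences run 5′ to 3′ over the 250 bases before the start, on the minus strand of GRCm38.p6. They cover chr17:46032378-46032627 for Vegfa, at the most upstream of its 2 listed start sites, and chr19:6987652-6987901 for Vegfb, and capitals mark the GC box GGGCGG read on either strand, including matches that touch.
Vegfa: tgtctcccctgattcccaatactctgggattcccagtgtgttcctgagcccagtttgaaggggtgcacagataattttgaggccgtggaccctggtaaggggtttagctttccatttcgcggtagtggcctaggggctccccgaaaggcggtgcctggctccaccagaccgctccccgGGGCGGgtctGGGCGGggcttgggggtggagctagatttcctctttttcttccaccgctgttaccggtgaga
Vegfb: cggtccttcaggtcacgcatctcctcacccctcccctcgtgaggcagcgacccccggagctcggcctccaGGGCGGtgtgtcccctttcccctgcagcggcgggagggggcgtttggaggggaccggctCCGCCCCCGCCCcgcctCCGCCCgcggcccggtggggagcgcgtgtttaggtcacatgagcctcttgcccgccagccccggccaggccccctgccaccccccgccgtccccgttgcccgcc

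With the 50 bases after the start included, the Vegfa window held 2 GC boxes and 62% G and C, and the Vegfb window 4 GC boxes and 75.3% G and C. A GC box stood in 35.7% of the 32851 promoters of the same length, so that its presence was common. Of the other motifs searched on both strands, the Vegfa window held 1 PU box (GAGGAA, in 28.3% of promoters), and the Vegfb window held none. Neither window held a TATA box (TATAAA, in 13.6%), the core ACGTG (in 19.6%) or the AP-1 core TGANTCA (in 7.81%). Among the other growth factors, Pdgfa and Tgfa had 2 GC boxes each in their windows, and Igf1, Hgf and Bdnf had 0. Hbegf, Pdgfb and Osm had no promoter sequence in the source used and were not searched.

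Vegfa was measured at 16.1, 13.2 and 9.61 CPM in NS replicates 1, 2 and 3, and at 7.35, 8.09 and 8.14 CPM in 4LPS replicates 1, 2 and 3. The 4LPS samples lay close together and below every NS sample, among which replicate 3 was the lowest. The mean fell from 12.97 ± 3.26 to 7.86 ± 0.440 CPM, a log2 fold change of -0.72 (SE 0.19, 95% interval -1.16 to -0.29; edgeR, adjusted p = 0.0372). This call was near the threshold and passed in 10 of 18 alternatives, with a direction below 0 in all of them. It was lost by edgeR without NS replicate 1 (-0.54, adjusted p = 0.114), NS replicate 2 (adjusted p = 0.0932), or 4LPS replicate 1, 2 or 3 (adjusted p = 0.103, 0.101 and 0.100). Without NS replicate 3 the log2 fold change was -0.90 (edgeR, adjusted p = 0.00434).

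Choroid plexus epithelium is a known site of Vegfa expression. Its 10 markers summed to 10189, 8547 and 1075 CPM in NS replicates 1, 2 and 3, the order in which Vegfa stood in these samples. In 4LPS they summed to 3388, 18.6 and 877 CPM, while Vegfa ranged only from 7.35 to 8.14 CPM. Of the 10 markers 0 were called by edgeR or DESeq2 and 0 had an unadjusted p under 0.05 by edgeR, and all 10 had log2 fold changes below 0. The log2 of their summed CPM plus 1 was used as a covariate in an alternative added after the data had been seen. With this covariate the log2 fold change of Vegfa was -0.62 and no longer passed (edgeR, adjusted p = 0.160). That of Hbegf was -1.96 (edgeR, adjusted p = 0.00717). Over all genes the fit with this covariate called 834 higher and 437 lower, beside 1308 and 845 without it. The part of choroid plexus cells in the Vegfa values was not tested.

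**Figure D2:**
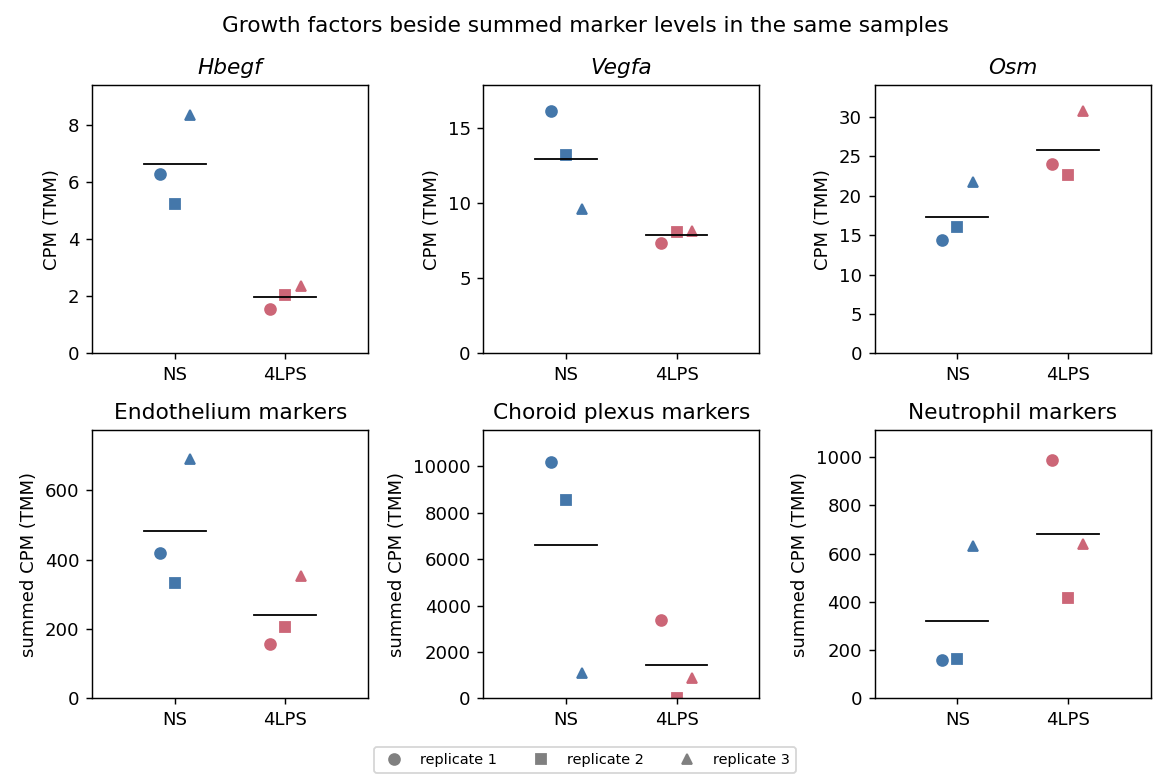
CPM of Hbegf, Vegfa and Osm (upper row) and the summed CPM of endothelium, choroid plexus and neutrophil markers (lower row) in the same samples, with group means as lines. Choroid plexus markers range from 18.6 to 10189 CPM, and NS replicate 3 (triangle) is the lowest NS sample in Vegfa and in these markers.

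Vegfb stood at 36.0, 34.1 and 27.4 CPM in NS replicates 1, 2 and 3, and at 40.3, 36.1 and 41.6 CPM in 4LPS replicates 1, 2 and 3. The groups did not overlap, by a narrow margin between NS replicate 1 and 4LPS replicate 2. The means were 32.5 ± 4.53 and 39.3 ± 2.87 CPM, and the log2 fold change of 0.27 (SE 0.11, 95% interval 0.02 to 0.53) did not pass (edgeR, adjusted p = 0.129), nor did it in any of 18 alternatives. Without NS replicate 3 it was 0.17 (edgeR, adjusted p = 0.207). Per length, the ratio of Vegfb to Vegfa was 6.84, 7.68 and 8.43 in NS and 16.2, 13.1 and 15.2 in 4LPS, in the order of replicates 1, 2 and 3. These FPKM ratios were chosen after the values had been seen and were not tested. They did not overlap between the groups.

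Pdgfb encodes the PDGF-B chain, which recruits pericytes to vessels, and lies at chr15:79880009-79899181 (GRCm39, minus strand). It stood at 325.9, 312 and 347 CPM in NS replicates 1, 2 and 3, and at 300.7, 277 and 329 CPM in 4LPS replicates 1, 2 and 3. The groups overlapped. The log2 fold change of -0.12 (SE 0.07, 95% interval -0.28 to 0.05) did not pass (edgeR, adjusted p = 0.273), nor did it in any of 18 alternatives. Without NS replicate 3 it was -0.07 (edgeR, adjusted p = 0.515).

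Pdgfa, the gene of the PDGF-A chain, a mitogen of oligodendrocyte precursors, lies at chr5:138961758-138983435 (GRCm39, minus strand). Its values were 15.2, 17.0 and 14.1 CPM in NS replicates 1, 2 and 3, and 16.8, 19.2 and 23.1 CPM in 4LPS replicates 1, 2 and 3. Only 4LPS replicate 1 lay within the NS range. The log2 fold change of 0.35 (SE 0.14, 95% interval 0.03 to 0.66) did not pass (edgeR, adjusted p = 0.119), nor did it in any of 18 alternatives. The FPKM ratio of Pdgfb to Pdgfa, again chosen after the values had been seen and not tested, was 12.8, 11.0 and 14.6 in NS and 10.7, 8.63 and 8.47 in 4LPS, in the order of replicates 1, 2 and 3.

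Osm encodes oncostatin M, a cytokine of the interleukin-6 family made by myeloid cells, and lies at chr11:4186420-4191026 (GRCm39, plus strand). Osm was measured at 14.4, 16.0 and 21.7 CPM in NS replicates 1, 2 and 3, and at 24.1, 22.6 and 30.7 CPM in 4LPS replicates 1, 2 and 3. Every 4LPS sample was above every NS sample, with NS replicate 3 just below 4LPS replicate 2. The means were 17.3 ± 3.86 and 25.8 ± 4.31 CPM, and the log2 fold change of 0.57 (SE 0.18, 95% interval 0.16 to 0.99) missed the threshold (edgeR, adjusted p = 0.0642). It passed in 3 of 18 alternatives, which were DESeq2 (0.58, adjusted p = 0.0120), edgeR with replicate numbers as blocks (0.58, adjusted p = 0.0104) and edgeR without NS replicate 3 (0.77, adjusted p = 0.0115).

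Neutrophil markers summed to 161, 165 and 632 CPM in NS replicates 1, 2 and 3 and to 988, 416 and 640 CPM in 4LPS. Of the 8 markers 0 were called by edgeR, with 3 higher at an unadjusted p under 0.05, and 1 (Cxcr2) was called higher by DESeq2. All 8 had log2 fold changes above 0, and NS replicate 3 was the NS sample highest in both Osm and these markers. In 4LPS, Osm was highest in replicate 3 and these markers in replicate 1. NS replicate 3 was also the highest NS sample in the summed markers of natural killer cells, monocytes, endothelium and mural cells, among other lists. Of the natural killer cell markers 10 of 10 were called higher, from 5.66 to 10.5 CPM in sum in NS to 109 to 125 CPM in 4LPS. Monocyte markers summed to 132 to 296 CPM in NS and 162 to 242 CPM in 4LPS, and DESeq2, one of the fits in which Osm passed, called 2 of 8 higher. No marker of these lists was at 0 in all samples, and the part of these cells in the Osm values was not tested.

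Igf1, the gene of insulin-like growth factor 1, lies at chr10:87693642-87772904 (GRCm39, plus strand). Its values were 7.05, 7.10 and 10.6 CPM in NS replicates 1, 2 and 3, and 12.1, 6.25 and 9.70 CPM in 4LPS replicates 1, 2 and 3. The groups overlapped widely, and both the highest and the lowest value were from 4LPS. The log2 fold change was 0.18 (SE 0.26, 95% interval -0.43 to 0.79; edgeR, adjusted p = 0.666), without 4LPS replicate 1 it was -0.04, and without NS replicate 3 it was 0.41 (edgeR, adjusted p = 0.307). No direction can be given for Igf1 from these samples.

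Hgf encodes hepatocyte growth factor, the ligand of the receptor Met, and lies at chr5:16758041-16828178 (GRCm39, plus strand). Its values were 1.45, 2.58 and 2.11 CPM in NS replicates 1, 2 and 3, and 2.77, 2.72 and 2.58 CPM in 4LPS replicates 1, 2 and 3, from 98 counts in NS and 119 in 4LPS. The groups met at NS replicate 2 and 4LPS replicate 3. The log2 fold change of 0.39 (SE 0.26) did not pass (edgeR, adjusted p = 0.328), and its 95% interval ran from -0.22 to 1.00.

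Bdnf, the gene of brain-derived neurotrophic factor, lies at chr2:109505045-109557475 (GRCm39, plus strand) and was barely detected in these libraries. Its counts were 0, 1 and 0 in NS replicates 1, 2 and 3, and 1, 0 and 0 in 4LPS replicates 1, 2 and 3. A difference in Bdnf was therefore not detectable at this depth. Markers of neurons, the main source of Bdnf in cortex, summed to 20.1 to 23.8 CPM in NS and 18.5 to 20.0 CPM in 4LPS.

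In the annotation, exons of Hbegf, Vegfa, Pdgfa, Bdnf, Tgfa and Hgf overlap an exon of another gene on the opposite strand. No source used here says whether the counting used the strand, and without it the reads of such a pair cannot be told apart. An exon of Hgf also overlaps one of another annotated gene (Gm43489) on the same strand, which strand would not separate. Vegfb, Igf1, Pdgfb and Osm have no such overlap.

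**Figure D3:**
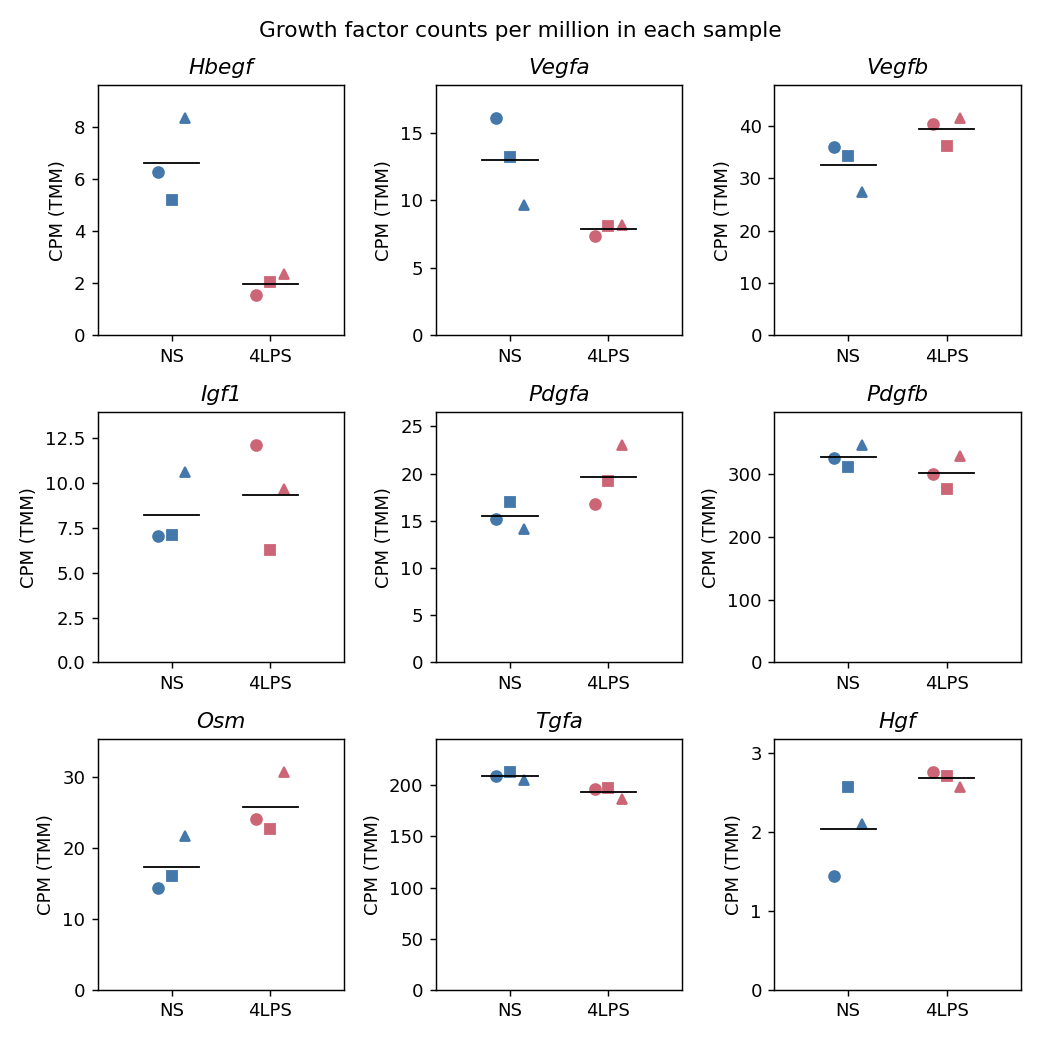
CPM (with TMM scaling) of 9 growth factors in each NS (blue) and 4LPS (red) sample, with the group mean as a line and a symbol for each replicate number (circle 1, square 2, triangle 3). The groups do not overlap for Hbegf, Vegfa, Vegfb, Osm and Tgfa.

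**Figure D4:**
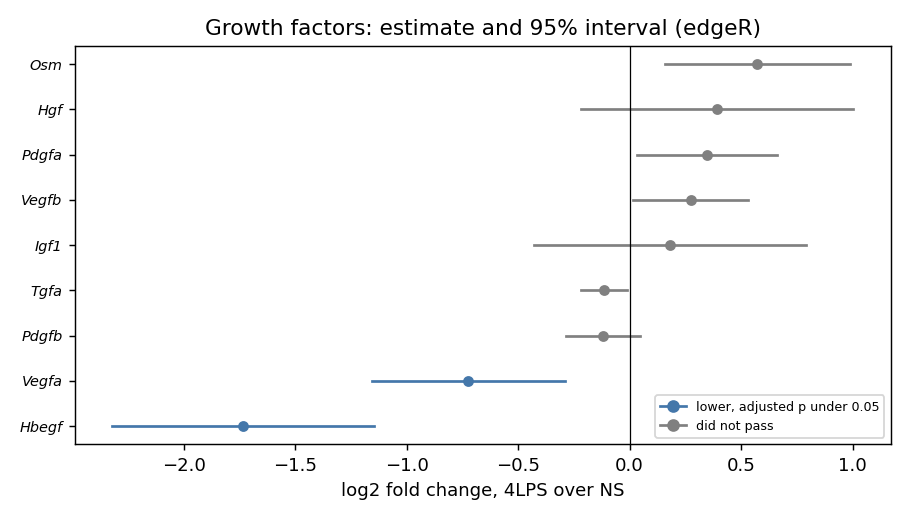
Log2 fold change (4LPS over NS) and 95% interval of 9 growth factors from edgeR, in blue where the adjusted p was under 0.05 and in grey otherwise. Hbegf at -1.73 and Vegfa at -0.72 passed, and the interval of Osm, at 0.57, did not reach 0 although its adjusted p was 0.0642.

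Ligands of the same families outside the 10 genes were mostly scarce. Of 25 listed, 24 were in the table and 9 passed the filter on low counts, while the highest group mean among the other 15 was 0.647 CPM. Pdgfc and Pdgfd fell, 0 genes were called higher and 7 did not pass (edgeR, adjusted p under 0.05). DESeq2 also called 0 higher, and 0 of the genes above 0 had an unadjusted p under 0.05. The median log2 fold change was -0.73, with 8 of 9 below 0, and the groups did not overlap for 2 of the 9. Over all genes tested the median was -0.02, with 9.95% called higher, 6.43% called lower, 52.7% below 0 and 37.4% without overlap.

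Pdgfc, whose product binds the PDGF receptor α, was measured at 5.66, 3.90 and 3.84 CPM in NS replicates 1, 2 and 3 and at 2.36, 1.56 and 1.02 CPM in 4LPS, with no overlap. It fell by 1.43 on the log2 scale (SE 0.33; edgeR, adjusted p = 0.0251). Pdgfd, whose product binds the PDGF receptor β, was measured at 8.62, 6.16 and 5.39 CPM in NS and at 2.90, 1.70 and 4.0005 CPM in 4LPS, in the same order and with no overlap. It fell by 1.23 (SE 0.32; edgeR, adjusted p = 0.0380). Both calls rested on several samples. Pdgfc was lost without NS replicate 1 or 2 or 4LPS replicate 2 or 3 (edgeR, adjusted p = 0.0919, 0.0507, 0.0852 and 0.0698), and Pdgfd without NS replicate 1 or 2 or 4LPS replicate 1 or 2 (edgeR, adjusted p = 0.130, 0.0755, 0.0911 and 0.0876). With the choroid plexus covariate in the fit neither passed, at a log2 fold change of -1.21 for Pdgfc (edgeR, adjusted p = 0.107) and -0.78 for Pdgfd (edgeR, adjusted p = 0.157).

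Igf2, which like Clcf1 is named after its values had been seen, ranged more widely between samples than between groups. It was measured at 288, 213 and 33.0 CPM in NS replicates 1, 2 and 3 and at 91.8, 4.49 and 30.4 CPM in 4LPS, with a log2 fold change of -2.08 (edgeR, adjusted p = 0.177). In both groups its samples stood in the same order as in the summed choroid plexus markers.

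Among the receptors, Nrp2 rose and Igf1r, Kdr, Erbb2, Il6st and Ntrk3 fell. Of 24 listed receptors 23 were in the table and 22 were tested, so that 1 was called higher, 5 lower and 16 did not pass (edgeR, adjusted p under 0.05). The median log2 fold change was -0.72, with 18 of 22 below 0, and the groups did not overlap for 10 of the 22. Over all genes tested, 9.95% were called higher, 6.43% were called lower, 52.7% were below 0 and 37.4% did not overlap. The count called lower was 8 without the composition factor, 10 with replicate numbers as blocks and 2 with the choroid plexus markers in the fit. Leaving out NS replicate 1 or 4LPS replicate 2 made it 1, and leaving out NS replicate 3 made it 8, with 2 called higher. In NS the receptor subunit Il6st (131 ± 16.1 FPKM), Sort1 (96.8 ± 3.08 FPKM), which binds pro-neurotrophins, and the VEGF co-receptor Nrp1 (46.0 ± 5.41 FPKM) had the highest levels per length of the list.

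Nrp2, a co-receptor of the VEGF family, was measured at 64.6, 68.3 and 70.4 CPM in NS replicates 1, 2 and 3 and at 99.0, 90.6 and 99.5 CPM in 4LPS. It rose by a log2 fold change of 0.51 (SE 0.06; edgeR, adjusted p = 0.00141) and passed in all 18 alternatives. Igf1r, the receptor of IGF-1, was measured at 87.0, 69.5 and 76.7 CPM in NS and at 49.8, 48.9 and 54.9 CPM in 4LPS. It fell by 0.60 (SE 0.09; edgeR, adjusted p = 0.00442) and also passed in all 18 alternatives. The groups did not overlap for either gene. The insulin receptor gene Insr, which is related to Igf1r, did not pass, with a log2 fold change of -0.05 (95% interval -0.20 to 0.09; edgeR, adjusted p = 0.572).

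Il6st, the gene of gp130, through which oncostatin M signals, was measured at 660, 570 and 732 CPM in NS replicates 1, 2 and 3 and at 515, 509 and 515 CPM in 4LPS. It fell by 0.35 (SE 0.09; edgeR, adjusted p = 0.0306), and passed in 13 of 18 alternatives. The call was lost without NS replicate 1 or 4LPS replicate 1, 2 or 3 (edgeR, adjusted p = 0.0949, 0.0723, 0.0897 and 0.0818). With the choroid plexus covariate it was lost as well (edgeR, adjusted p = 0.0558). The partner subunits Osmr and Lifr did not pass, with log2 fold changes of -0.69 (edgeR, adjusted p = 0.279) and -0.20 (edgeR, adjusted p = 0.0841).

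For Vegfa, the receptor gene Kdr (VEGFR2) was measured at 31.8, 25.8 and 43.8 CPM in NS replicates 1, 2 and 3 and at 15.9, 18.1 and 20.5 CPM in 4LPS. It fell by 0.90 (SE 0.19; edgeR, adjusted p = 0.0188) without overlap, and passed in 15 of 18 alternatives, the others being those without NS replicate 1 or 4LPS replicate 1 or 2 (edgeR, adjusted p = 0.0527, 0.0564 and 0.0599). Flt1 (VEGFR1), at 115, 87.5 and 205 CPM in NS and 33.6, 50.6 and 88.5 CPM in 4LPS, did not pass, with a log2 fold change of -1.24 (edgeR, adjusted p = 0.0704). Nrp1 did not pass either, at 0.15 (edgeR, adjusted p = 0.296). Kdr and Flt1 are known chiefly from endothelium, whose 10 markers, Flt1 among them, summed to 334 to 690 CPM in NS and 158 to 354 CPM in 4LPS. Their part in the receptor values was not tested.

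For Hbegf, the receptor genes were low. Egfr was measured at 4.59, 2.51 and 2.48 CPM in NS replicates 1, 2 and 3 and at 2.70, 1.63 and 1.36 CPM in 4LPS, and did not pass (log2 fold change -0.75; edgeR, adjusted p = 0.189). Erbb4 was measured at 6.48, 4.84 and 2.23 CPM in NS and at 2.63, 0.680 and 1.22 CPM in 4LPS, and did not pass (-1.57; edgeR, adjusted p = 0.0829). Erbb2, the co-receptor that binds no ligand itself, fell from 2.52, 2.45 and 3.16 CPM in NS to 0.675, 0.952 and 1.49 CPM in 4LPS (log2 fold change -1.38, SE 0.33; edgeR, adjusted p = 0.0277). It passed in 10 of the 15 alternatives that tested it, and was lost without NS replicate 1 or 2 or 4LPS replicate 1 or 2 (edgeR, adjusted p = 0.0735, 0.0590, 0.0749 and 0.0942). With the choroid plexus covariate it was lost as well (edgeR, adjusted p = 0.0663).

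Ntrk3, the receptor of neurotrophin-3, fell from 2.01, 1.45 and 2.48 CPM in NS to 0.809, 1.02 and 0.746 CPM in 4LPS (log2 fold change -1.20, SE 0.32; edgeR, adjusted p = 0.0402). It passed in 6 of the 15 alternatives that tested it, and was lost by DESeq2 (adjusted p = 0.0926) and limma-voom (adjusted p = 0.0556). With the replicate block or the choroid plexus covariate it was lost too (edgeR, adjusted p = 0.0674 and 0.0551). Without NS replicate 1 or 3 or 4LPS replicate 1, 2 or 3 it was lost (edgeR, adjusted p = 0.114, 0.0746, 0.105, 0.0821 and 0.119). The PDGF receptor genes Pdgfra and Pdgfrb did not pass, with log2 fold changes of -1.11 (edgeR, adjusted p = 0.0846) and -0.86 (edgeR, adjusted p = 0.0992), nor did Met, the HGF receptor, at 0.84 (edgeR, adjusted p = 0.155).

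Among genes that release, activate or bind growth factors, 6 rose and 0 fell. Of 24 listed, all in the table, 23 were tested. Adam17, Spint1, Igfbp4, Cd9, Rhbdf2 and Adam10 were called higher and 17 genes did not pass (edgeR, adjusted p under 0.05). Without the composition factor 3 were called higher, and the count was 3 when NS replicate 1 was left out and 2 when NS replicate 2 or 4LPS replicate 3 was. Without NS replicate 3 or 4LPS replicate 3, 1 was called lower. Of those below 0, 1 had an unadjusted p under 0.05, and DESeq2 called 7 higher and 0 lower. The median log2 fold change was 0.21, with 10 of 23 below 0, and the groups did not overlap for 11 of the 23. The shares over all genes tested were 9.95% called higher, 6.43% called lower, 52.7% below 0 and 37.4% without overlap.

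Adam17 encodes the metalloprotease that sheds HB-EGF and TGF-α from the membrane. It was measured at 306, 305 and 315 CPM in NS replicates 1, 2 and 3 and at 397, 413 and 414 CPM in 4LPS, with no overlap. It rose by a log2 fold change of 0.40 (SE 0.04; edgeR, adjusted p = 7.58e-04) and passed in all 18 alternatives. Rhbdf2, whose product iRhom2 carries ADAM17 to the cell surface, was measured at 26.2, 22.3 and 23.9 CPM in NS and at 30.4, 30.5 and 38.0 CPM in 4LPS (0.45, SE 0.11; edgeR, adjusted p = 0.0325). Its paralog Rhbdf1 did not pass, at -0.20 (edgeR, adjusted p = 0.307). Adam10, the related sheddase, was measured at 432, 445 and 515 CPM in NS and at 552, 568 and 572 CPM in 4LPS (0.28, SE 0.07; edgeR, adjusted p = 0.0344). Cd9, a tetraspanin that associates with the membrane form of HB-EGF, was measured at 632, 606 and 667 CPM in NS and at 728, 739 and 813 CPM in 4LPS (0.26, SE 0.06; edgeR, adjusted p = 0.0312).

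Rhbdf2, Adam10 and Cd9 were close to the threshold and passed in 10, 8 and 9 of 18 alternatives. Without the composition factor Adam10 and Cd9 were lost (edgeR, adjusted p = 0.0833 and 0.0863). With the choroid plexus covariate they were lost too (edgeR, adjusted p = 0.137 and 0.101). Neither passed in the 3 fits of FPKM (limma, adjusted p from 0.0859 to 0.188). Among fits leaving out 1 sample, Rhbdf2 was lost without NS replicate 1 or 2 or 4LPS replicate 3 (edgeR, adjusted p = 0.0536, 0.0914 and 0.0821). Adam10 passed by edgeR only without NS replicate 3 among the fits that left out 1 sample, with adjusted p of 0.111, 0.100, 0.0590, 0.0780 and 0.0755 without NS replicates 1 and 2 and 4LPS replicates 1, 2 and 3. Cd9 was lost without NS replicate 1 or 2 or 4LPS replicate 2 or 3 (edgeR, adjusted p = 0.0965, 0.0942, 0.0536 and 0.0659).

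Spint1 encodes HAI-1, an inhibitor of the proteases that activate HGF. It was measured at 112, 128 and 123 CPM in NS replicates 1, 2 and 3 and at 169, 164 and 182 CPM in 4LPS, rose by a log2 fold change of 0.50 (SE 0.07; edgeR, adjusted p = 0.00218) and passed in all 18 alternatives. Igfbp4, the gene of a binding protein that holds IGF-1 back from its receptor, was measured at 44.2, 41.1 and 42.5 CPM in NS and at 66.1, 51.0 and 62.0 CPM in 4LPS (0.49, SE 0.10; edgeR, adjusted p = 0.0141). It passed in 15 of 18 alternatives and was lost without NS replicate 2 or 4LPS replicate 3 (edgeR, adjusted p = 0.0506 and 0.0552). By limma on log2(FPKM + 1) with no filter it was lost as well (adjusted p = 0.0580). The groups overlapped for neither gene.

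**Figure D5:**
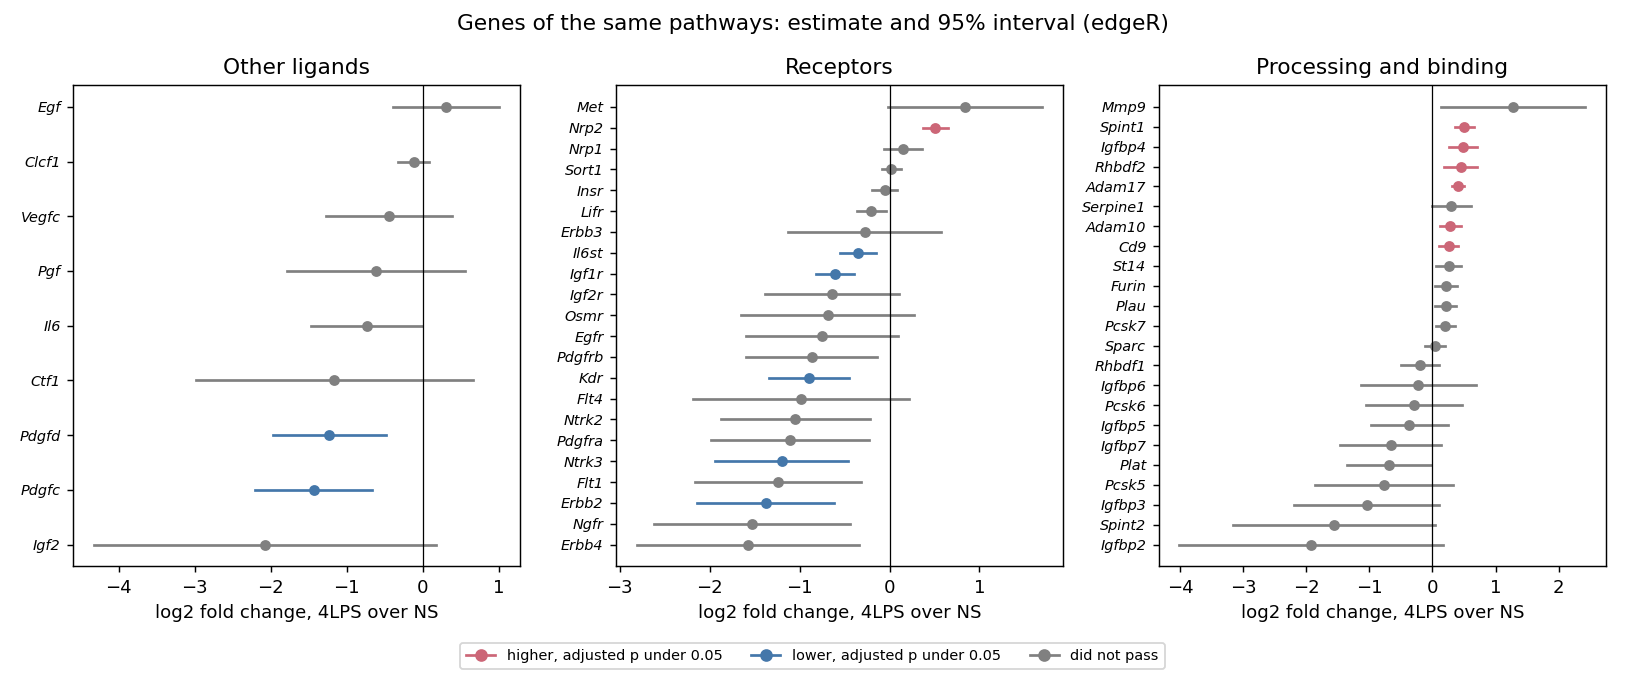
Log2 fold change (4LPS over NS) and 95% interval from edgeR for the tested other ligands (9), receptors (22) and processing and binding genes (23), in red or blue where the adjusted p was under 0.05 (higher or lower) and in grey otherwise. The called genes are 2 lower ligands, 1 higher and 5 lower receptors, and 6 higher processing and binding genes.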

How the data were processed

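CD11b+ cells of 3 NS and 3 4LPS samples were compared, with groups and replicate numbers taken from the labels. The authors aligned paired reads with HISAT2 2.0.4 and Bowtie2 2.2.5 and quantified genes by RSEM 1.2.8, and DESeq2 1.16.1 is named for their differential expression. The methods name the build mm39, to which the submitters' processing notes add mm10. The annotation used is not stated in these sources. The authors deposited expected counts, which are estimated counts that are not normalized, and FPKM values, which are scaled by the authors for length and library total. The deposited TPM values and the deposited normalized signal were not used, nor were the authors' group means. RSEM shares reads between similar genes.

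Rounded expected counts were fitted by edgeR 4.0.16 under R 4.3.3 (TMM factors, filterByExpr on the groups, quasi-likelihood F-test, Benjamini-Hochberg over the 13151 genes tested), and CPM used the same factors. Standard errors are the absolute log2 fold change over the root of F. The p-values measure the spread between pools of 2 mice. No sample repeated another of its group. The mean chi-square per gene between samples of a group was 5.93 or more, where sampling noise alone gives about 1. Samples of different groups were not compared in this way. Alternatives used DESeq2 1.42.0, limma 3.58.1 (voom, or log2(FPKM + 1) and log2(FPKM + 0.1)), other scalings, filters and samples.

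The 10 members, the lists of ligands, receptors, processing genes and cell type markers, and the tests were chosen with earlier results of these data known. Named genes are the members, up to 6 called genes per list and direction by adjusted p, and the receptors of called members. Other receptors, single marker genes, Rhbdf1, Igf2 and Clcf1 were named after their values were seen. Positions are from the GENCODE annotation on GRCm39, and promoter sequences from RefSeq on GRCm38.p6.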

Additional observations from a re-analysis of the deposited data

How the results depend on the processing

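Of the growth factors only Igf1 reversed, to a log2 fold change of -0.0405 without 4LPS replicate 1, in a range from -0.0405 to 0.42 when 1 sample was left out, under the 18 alternatives tried (17 planned and 1 added after the data had been seen). The count of growth factors called higher was 0 as reported and 1 with DESeq2 or the replicate block, and ranged from 0 to 1 when 1 sample was left out. The count called lower was 2 as reported, 3 without a composition factor or by limma on log2(FPKM + 1) or log2(FPKM + 0.1), 1 by limma-voom, 1 with the choroid plexus level as covariate, and 1 to 2 when 1 sample was left out. Among other ligands, the 2 called lower became 0 with that covariate and 0 to 2 when 1 sample was left out. Of processing and binding genes, the 6 called higher became 3 without a composition factor, 3 by limma on log2(FPKM + 1) or log2(FPKM + 0.1), 2 on log2(FPKM + 1) with no filter, 3 with the covariate and 2 to 8 when 1 sample was left out. The count called lower went from 0 to 1 with the replicate block and 0 to 1 when 1 sample was left out. Receptors called higher were 1, and 1 to 2 when 1 sample was left out. Receptors called lower were 5 as reported, 8 without a composition factor, 3 with at least 50 counts in 3 samples, 3 on log2(FPKM + 0.1), 10 with the replicate block, 2 with the covariate and 1 to 8 when 1 sample was left out. The cause of these shifts was not tested.

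The deviations of same-numbered samples from their group means had correlations of 0.51, -0.25 and 0.13 over genes. Without the values for differently numbered samples beside them, these do not settle whether the numbers pair the samples. The main fit used no pairing, and the replicate block gave 1275 genes higher and 1081 lower. Over all genes, 1308 were called higher and 845 lower as reported, 906 and 1711 without a composition factor, 823 and 1486 by limma on log2(FPKM + 1), 813 and 1454 on log2(FPKM + 0.1), 818 and 1335 with no filter, and 834 and 437 with the covariate. Leaving out NS replicate 1, 2 or 3 gave 781, 982 and 1629 higher and 369, 551 and 1215 lower, and leaving out 4LPS replicate 1, 2 or 3 gave 914, 935 and 853 higher and 557, 363 and 436 lower. Of the tested growth factors Hgf rested on the fewest counts over all samples, 98 in NS and 119 in 4LPS.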
